A study of Mus musculus with 2 samples.

Results

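The 10 genes described here store and move iron, and their mRNA was measured in mouse leukemic stem cells (LSCs) of chronic myeloid leukemia (CML). They were chosen by gene symbol, and all 10 were found among the 23284 gene rows. They are the ferritin chains Fth1 and Ftl1, the ferritin receptor of autophagy Ncoa4, the uptake genes Tfrc and Slc11a2, the phagosomal transporter gene Slc11a1, the exporter gene Slc40a1, the heme oxygenase gene Hmox1 and the iron regulatory protein genes Aco1 and Ireb2. RNA-seq gave 1 WT and 1 STAP-1 KO library. In both groups LSK cells, which are negative for lineage markers and positive for c-Kit and Sca-1, were taken from donors of the C57BL/6J strain, transduced with a retrovirus encoding human BCR-ABL and GFP, and transplanted with BM cells into lethally irradiated congenic recipients. The donors of one group were wild type, and those of the other carried a targeted disruption of the STAP-1 gene. GFP+ LSK cells of donor origin were sorted at day 11 after transplantation, and mice of 8 to 14 weeks were used throughout the study. How many mice stood behind each library is not given in the sources used here. With 1 library per genotype no difference has a replicate check, no p-value is given, and genotype cannot be told apart from differences in the mice, the sorting or the preparation of the libraries.

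Cells take up transferrin-bound iron through the transferrin receptor encoded by Tfrc, and the divalent metal transporter encoded by Slc11a2 carries it from the endosome to the cytosol. Iron that is not used at once is stored in ferritin, a shell of heavy chains (Fth1), which oxidise iron, and light chains (Ftl1), which help to mineralise it. Ferroportin, encoded by Slc40a1, exports iron. The iron regulatory proteins IRP1 (Aco1) and IRP2 (Ireb2) bind hairpins in mRNA, the iron-responsive elements (IREs), when iron is scarce. Binding in a 5′ untranslated region (UTR) blocks translation, and binding in the 3′ UTR of Tfrc protects the mRNA from decay.

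These hairpins were located in the transcripts of the members, since hairpins of this form are what the proteins of Aco1 and Ireb2 bind. The longest coding transcript of each gene in GENCODE M21 (GRCm38) was searched on its own strand for a bulged C, a stem of 5 bases, the loop CAGTGN and the 5 bases that close the stem, and at least 4 of the 5 stem positions had to pair, with G-T pairs allowed. Sites are printed as DNA with 5 bases on either side, and capitals mark the bulged C and the loop. The Fth1 site lay in the 5′ UTR on the plus strand, at chr19:9982733-9982759. The Ftl1 site lay in the 5′ UTR in exon 1 on the minus strand, at chr7:45459780-45459806, and the Slc40a1 site in the 5′ UTR in exon 1 on the minus strand, at chr1:45925466-45925492. Tfrc had 4 sites in the 3′ UTR in exon 19 on the plus strand, at chr16:32631220-32631246, chr16:32631599-32631625, chr16:32631664-32631690 and chr16:32631711-32631737. The Slc11a2 site lay in the 3′ UTR in exon 16 on the minus strand, at chr15:100395154-100395180. The sites were held by 4 of 5 coding transcripts of Fth1, 1 of 2 of Ftl1, 1 of 4 of Slc40a1, 1 of 3 of Tfrc and 1 of 6 of Slc11a2, and the measured values are per gene and do not separate transcripts with a site from those without.
Fth1: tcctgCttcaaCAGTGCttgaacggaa
Ftl1: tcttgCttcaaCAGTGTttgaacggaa
Slc40a1: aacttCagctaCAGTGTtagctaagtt
Tfrc site 1: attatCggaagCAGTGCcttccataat
Tfrc site 2: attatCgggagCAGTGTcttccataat
Tfrc site 3: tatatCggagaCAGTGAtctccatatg
Tfrc site 4: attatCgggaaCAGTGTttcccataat
Slc11a2: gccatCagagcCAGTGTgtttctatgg

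The sites of Fth1 and Ftl1 differed at 2 of the 27 bases printed, and sites 1 and 2 of Tfrc also at 2. All 5 stem positions paired in the sites of Fth1, Ftl1, Slc40a1 and Tfrc, and 4 in that of Slc11a2. Among 21901 coding genes, 1.24% held a match with 5 pairs and 10.1% a match with at least 4. In the 5′ UTR a match with 5 pairs was held by 0.0966% of the 20701 genes with an annotated 5′ UTR. Slc11a1 had a match with 4 pairs inside its coding sequence, and 4 members (Hmox1, Aco1, Ireb2 and Ncoa4) had none by this pattern. A match of letters is a description and does not show that a protein binds there.

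The deposited values are FPKM, read counts scaled to transcript length and library depth. This scaling does not remove all differences between libraries, and the ratio of the libraries still varied with transcript length, as described below. The targeted gene Stap1 had 62.0 FPKM in WT and 0.309 FPKM in STAP-1 KO LSCs, which matches the labels. From the steps between low values, the effective depth was 7500000 reads (WT) and 10470000 reads (STAP-1 KO). Intervals given below are 95% counting intervals of the ratio from reads estimated with these depths, and cover counting error only. Over the 10974 genes averaging 1 FPKM or more, the median log2 ratio was -0.04. Of the sorting antigens, Kit had 468 FPKM in WT and 30.1 FPKM in STAP-1 KO LSCs, and Ly6a (Sca-1) had 285 and 106 FPKM. Both were detected in either library, with log2 ratios of -3.96 and -1.43. Whether the sorted populations were alike in make-up was not tested.

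All 10 iron genes had a lower value in the STAP-1 KO library than in the WT library, and they differed widely in how much lower. For Slc40a1 the counting interval included no difference. Of all genes averaging 1 FPKM or more, 51.7% had a log2 ratio below 0. A gene was counted as lower or higher when it had at least 0.1 FPKM in both libraries and a ratio of at least 2, the cut-off of the study. By this rule 5 of the 10 members were lower (Ftl1, Slc11a1, Hmox1, Aco1 and Ireb2) and 0 were higher. Of all 12507 genes that could be compared, 22.9% were lower and 12.3% were higher. Lower genes thus made up 65.0% of those past the cut-off, and 53.6% when the libraries were scaled to equal total FPKM without features under 200 bases, which left 4 members lower (all but Ireb2 of the 5). With these features kept in the totals the share was 57.9% and all 5 were lower. The median log2 ratio of the members, given as log2((STAP-1 KO + 0.1)/(WT + 0.1)), was -0.95. The other 5 members were between 1.18-fold and 1.69-fold lower.

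**Figure D1:**
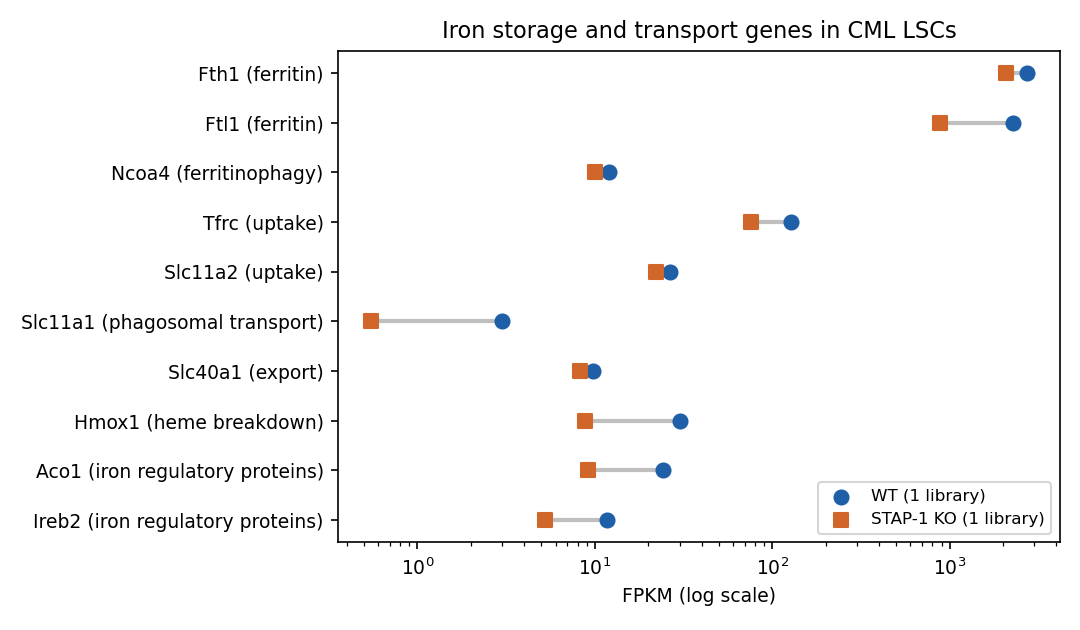
FPKM (x axis, log scale) of each iron gene, with its role in parentheses, in the WT library (circles) and the STAP-1 KO library (squares), 1 library each. The ferritin chains (882 to 2727 FPKM) lie farthest to the right and Slc11a1 (0.547 and 2.99 FPKM) farthest to the left, and each square lies to the left of its circle, by 5.47-fold for Slc11a1 and 1.18-fold for Slc40a1.

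Ferritin mRNA was by far the most abundant of the iron transcripts. Fth1 (GRCm38 chromosome 19, 9980598 to 9985098) had 2727 FPKM in WT and 2085 FPKM in STAP-1 KO LSCs, a difference of 1.31-fold (interval 1.29 to 1.33). It was the gene with the 12th highest value in the WT library and the 10th highest in the STAP-1 KO library. Ftl1 (chromosome 7, 45457944 to 45459884) had 2279 and 882 FPKM, a difference of 2.58-fold (2.51 to 2.66), and moved from rank 18 to rank 47. The heavy chain thus stood at 76.5% of its WT level and the light chain at 38.7%.

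The ratio of Fth1 to Ftl1 was 1.20 in WT and 2.36 in STAP-1 KO LSCs, so that the light chain made up 45.5% of ferritin FPKM in the former and 29.7% in the latter. The change of this ratio was 1.98-fold (1.91 to 2.04). It is taken within each library and does not depend on how the libraries were scaled. Both chains have short transcripts, and genes with short transcripts were in general higher in the STAP-1 KO library. Corrected for length and GC content of the transcripts, the log2 ratios were -0.87 for Fth1 and -1.59 for Ftl1, and the difference between them was 0.72 in place of 0.98. Together the chains had 5006 and 2968 FPKM, 0.852% and 0.568% of all FPKM outside features under 200 bases. Ferritin genes have near-identical copies in the genome, to which reads may have been assigned, and the Ftl1 exons share 355 bases with an annotated gene on the opposite strand, from which unstranded libraries cannot tell it apart. Fthl17, the other gene of the tables whose symbol begins with Fth or Ftl, was listed at 0 in both libraries.

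Ncoa4 (chromosome 14, 32159865 to 32179855), which encodes the receptor that delivers ferritin to the autophagosome, had 12 FPKM in WT and 9.96 FPKM in STAP-1 KO LSCs. This difference of 1.21-fold (1.04 to 1.40) was far below the cut-off, and after this correction the log2 ratio was 0.09 in place of -0.27. Autophagy genes that act with it were also compared. Of 15 such genes, 8 were lower by at least 2-fold and 0 were higher, and their median log2 ratio was -0.99. Among all genes averaging 1 FPKM or more, 22.2% were lower and 11.5% were higher. Sqstm1, the cargo receptor p62, had 1050 FPKM in WT and 238 FPKM in STAP-1 KO LSCs. Atg9a, a membrane protein of the forming autophagosome, had 22.5 and 5.96 FPKM. Gabarap, which is conjugated to the autophagosome membrane, had 408 and 159 FPKM, Atg16l1 had 22 and 9.88 FPKM, and the lysosomal membrane gene Lamp2 had 190 and 90.2 FPKM. Atg5 (28.9 and 40.2 FPKM), Becn1 (97.1 and 108 FPKM) and Gabarapl2 (22.6 and 25.5 FPKM) were on the other side. After the correction the log2 ratio was -0.03 for Atg5 and -0.34 for Gabarapl2. Lamp1 (254 and 229 FPKM) and Map1lc3b (125 and 97.1 FPKM) were within the cut-off. After the correction the median was -0.44 and 6 genes were lower, since Herc2 (-0.15), Rb1cc1 (-0.40) and Ulk1 (-0.28) no longer passed the cut-off and Tax1bp1 (-1.18) did. Of all 12507 genes compared, 19.6% were lower after the correction.

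Of the uptake genes, Tfrc (chromosome 16, 32608920 to 32632794), the transferrin receptor, had 128 FPKM in WT and 75.4 FPKM in STAP-1 KO LSCs. The difference was 1.69-fold (1.62 to 1.77), with a log2 ratio of -0.76 and of -0.64 after the correction. Tfrc thus passed a 1.5-fold cut-off and not the 2-fold one. Relative to the summed ferritin chains, Tfrc was at 2.55% in WT and 2.54% in STAP-1 KO LSCs. This holds for the values as deposited, since the log2 difference of Fth1 and Tfrc turned from 0.37 to -0.23 with the correction. Tfr2, the second transferrin receptor, had 30.1 and 40.8 FPKM, and transferrin itself (Trf) had 74.5 and 79.5 FPKM. Steap3, which reduces endosomal iron, was lower, with 30.2 and 14.4 FPKM, but its log2 ratio of -1.06 became -0.43 after the correction.

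Slc11a2 and Slc11a1 encode related transporters of divalent metals, the first in the transferrin endosome of most cells and the second in the phagosome of macrophages and granulocytes. Slc11a2 (chromosome 15, 100387898 to 100425072) had 26.4 FPKM in WT and 22 FPKM in STAP-1 KO LSCs, a difference of 1.20-fold (1.10 to 1.32), and its corrected log2 ratio was 0.00. Slc11a1 (chromosome 1, 74375195 to 74386062) had 2.99 FPKM in WT and 0.547 FPKM in STAP-1 KO LSCs. It was the member with the lowest level in both libraries and, as deposited, the one with the largest difference, 5.47-fold. It rested on about 47.2 and 12.1 estimated reads, so that its interval reached from 2.86 to 11.3.

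The ratio of Slc11a2 to Slc11a1 was 8.84 in WT and 40.1 in STAP-1 KO LSCs, a change of 4.54-fold (2.39 to 8.62). The log2 ratio of Slc11a1 was -2.26, and -2.28 after the correction. With a pseudocount of 1 FPKM it was -1.37, beside -1.67 for Hmox1 and -1.37 for Ftl1. The rank of Slc11a1 as the largest difference thus depended on the pseudocount. Slc11a1 was also the only member that passed a 4-fold cut-off, and the only one of the 5 lower members that a floor of 1 FPKM in both libraries removed.

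Slc40a1 (chromosome 1, 45908068 to 45926523), the gene of the only known iron exporter, had 9.80 FPKM in WT and 8.28 FPKM in STAP-1 KO LSCs. As deposited, the difference of 1.18-fold was the smallest of the 10, and its interval (0.989 to 1.41) included no difference. Its log2 ratio of -0.24 was -0.50 after the correction, farther from 0 than those of Slc11a2 (0.00) and Ncoa4 (0.09). Its level was below that of Tfrc in both libraries. The ratio of Tfrc to Slc40a1 was 13 in WT and 9.11 in STAP-1 KO LSCs, and the log2 difference of -0.52 (-0.78 to -0.26) between them was -0.14 after the correction for length and GC content. Hamp, the gene of hepcidin, the hormone that degrades ferroportin, was listed at 0 in the WT library and at 1.03 FPKM in STAP-1 KO LSCs. It averaged under 1 FPKM, and with 0 in WT it could not be called. The ferroxidase genes Cp and Heph were below 0.3 FPKM in both.

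Hmox1 (chromosome 8, 75093621 to 75100589), the inducible heme oxygenase that releases iron from heme, had 30.1 FPKM in WT and 8.80 FPKM in STAP-1 KO LSCs. As deposited, this was the second largest difference, 3.42-fold (2.77 to 4.25), and its log2 ratio of -1.76 was -2.04 after the correction. Hmox2, the constitutive enzyme, lay on the other side, with 58.2 and 111 FPKM. Hmox1 thus stood at about the level of Slc11a2 in the WT library and at that of Slc40a1 in the STAP-1 KO library. The biliverdin reductase genes Blvra (68.8 and 71.0 FPKM) and Blvrb (246 and 178 FPKM), which act on its product, were within the cut-off. Of the factors that control Hmox1, the repressor gene Bach1 had 1.89 and 0.964 FPKM and the activator gene Nfe2l2 had 77.4 and 62.4 FPKM, neither of which passed the cut-off.

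Both iron regulatory protein genes were lower in STAP-1 KO LSCs. Aco1 (chromosome 4, 40143081 to 40198338), whose protein is a cytosolic aconitase when it holds an iron-sulfur cluster and IRP1 when it does not, had 24.1 FPKM in WT and 9.09 FPKM in STAP-1 KO LSCs, a difference of 2.65-fold (2.32 to 3.03). Ireb2 (chromosome 9, 54863789 to 54912530), which encodes IRP2, had 11.7 and 5.24 FPKM, a difference of 2.24-fold (1.94 to 2.59). Their sum was 35.8 and 14.3 FPKM. The ratio of Aco1 to Ireb2 was 2.05 and 1.73, and the interval of its change (0.696 to 1.02) included no change. After the correction, however, the log2 difference of Aco1 and Ireb2 was -0.41 (-0.69 to -0.13) in place of -0.24 (-0.52 to 0.04), so that whether the pair differed depended on the correction. Fbxl5, which degrades IRP2 when iron is plentiful, had 32.3 and 31.6 FPKM.

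Of the 5 lower members, Ireb2 was the closest to the cut-off. Its transcript is the longest of the members (5770 bases), and genes of such length had a median log2 ratio of -0.59. After the correction its log2 ratio was -0.92 in place of -1.15, under the cut-off, whereas that of Aco1 was -1.33 in place of -1.40. When the libraries were scaled to equal total FPKM without features under 200 bases it was -0.98, also just under the cut-off, and with these features kept in the totals it was -1.05, past it.

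**Figure D2:**
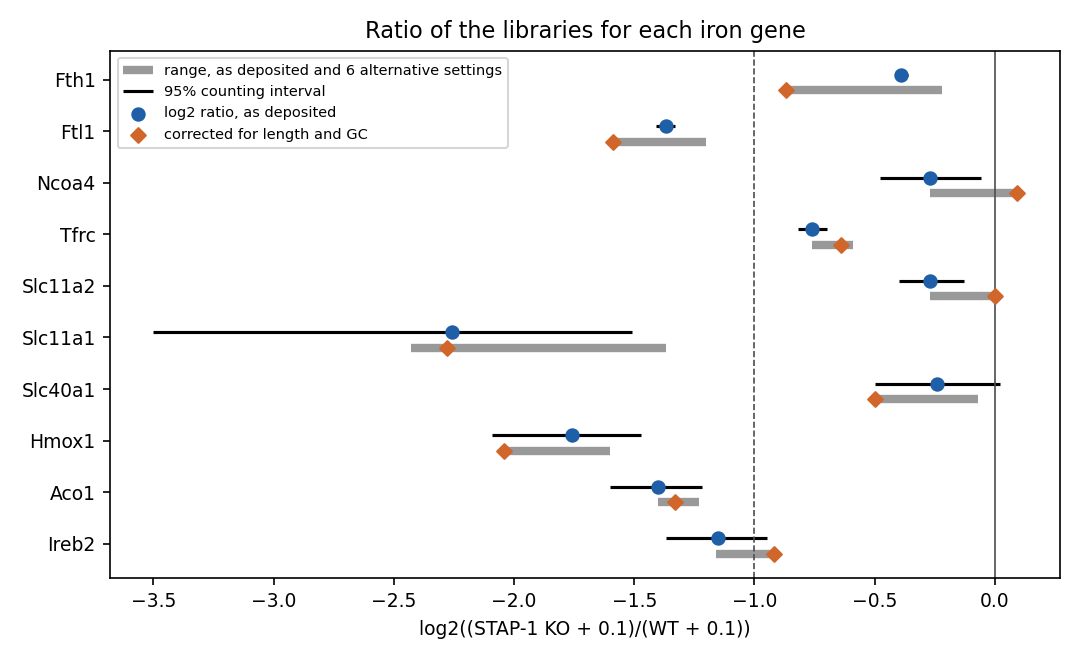
Log2 ratio of STAP-1 KO over WT (x axis) of each iron gene, with circles for the values as deposited, black lines for 95% counting intervals, diamonds for values corrected for transcript length and GC content and grey bars for the range over all settings. The dashed line marks the 2-fold cut-off, and the circles of Slc11a1 (-2.26), Hmox1 (-1.76), Aco1 (-1.40), Ftl1 (-1.37) and Ireb2 (-1.15) lie beyond it.

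The members with a site in a UTR had different log2 ratios. Among those with a site in the 5′ UTR, the log2 ratio was -0.39 for Fth1, -1.37 for Ftl1 and -0.24 for Slc40a1. After the correction these were -0.87, -1.59 and -0.50. With sites in the 3′ UTR, Tfrc was at -0.76 and Slc11a2 at -0.27 (-0.64 and 0.00 after the correction). Other transcripts with known IREs included Alas2 at -1.61 (100 and 32.8 FPKM) and Cdc14a at -0.14 (7.33 and 6.63 FPKM). FPKM values measure mRNA, and translation, at which the 5′ sites act, was not measured. The part of the IREs in these ratios was not tested.

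The ratio of the libraries varied with transcript length across all genes. Spearman's correlation between the log2 ratio and the longest transcript was -0.37 across 10878 genes, which share the same pair of libraries and are not replicates. The median log2 ratio was 0.48 in the shortest of 20 length bins (up to 958 bases) and -1.0 in the longest (from 7749 bases). The members were spread over this range. Ftl1, Hmox1 and Fth1, whose length bins had medians of 0.52, 0.41 and 0.42, lay below genes of their own length by more than below all genes. For Ncoa4, Slc11a2 and Tfrc, with bin medians of -0.47, -0.26 and -0.47, the reverse held. After the correction 9 of the 10 members had a log2 ratio below 0, 4 were lower by at least 2-fold (all but Ireb2 of the 5) and the median was -0.90. Of all 12507 genes compared, 19.6% were lower and 10.7% were higher after the correction.

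**Figure D3:**
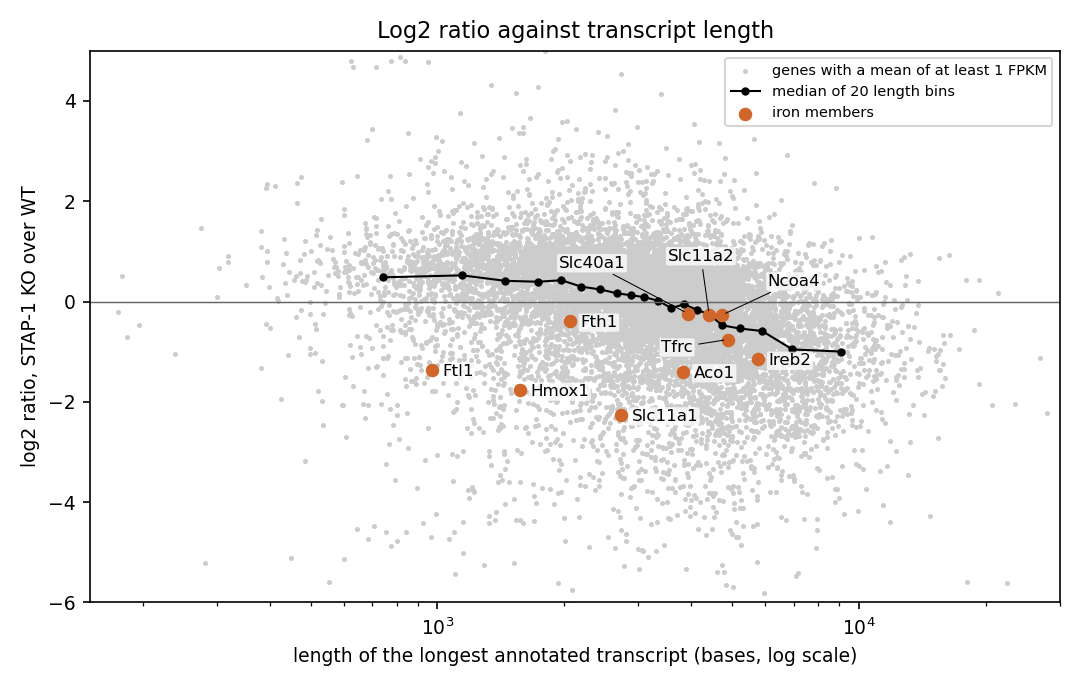
Log2 ratio of STAP-1 KO over WT (y axis) against the length of the longest annotated transcript (x axis, log scale) for genes averaging 1 FPKM or more (grey), with the median of 20 length bins (black line) and the iron genes (orange). The line descends from 0.48 to -1.0, and Ftl1, Hmox1 and Slc11a1 lie well below it while Slc11a2 and Ncoa4 lie on or above it.

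In the wider iron network, values lay on both sides. The 7 lists written from general knowledge held 103 further genes, of which 82 averaged 1 FPKM or more. Of these, 16 (19.5%) were lower by at least 2-fold and 3 (3.66%) were higher, beside 22.2% and 11.5% of all genes at this level. Their median log2 ratio was 0.02, beside -0.04 for all genes. Among 14 genes of iron transport and reduction 3 were lower and 0 higher, with a median of -0.25. The lower genes were Ltf (13.7 and 3.69 FPKM), the lactoferrin gene of neutrophil granules, Slc46a1 (3.47 and 1.35 FPKM), a folate and heme transporter, and Steap3. The lipocalin gene Lcn2, which binds iron-loaded siderophores, had 17.8 and 28.7 FPKM. The heme exporter gene Abcg2 (64.7 and 75.1 FPKM) and the mitochondrial importer gene Slc25a28 (17.6 and 18.5 FPKM) had similar values in both libraries.

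Heme synthesis differed by enzyme. Of 12 genes, 2 were lower and 1 was higher, and the median of -0.14 was close to 0 and changed sign under 1 alternative setting. The first step is catalysed by 2 isoenzymes that lay on opposite sides, with Alas1, the form of most tissues, at 20.1 FPKM in WT and 58.5 FPKM in STAP-1 KO LSCs, and Alas2, the erythroid form, at 100 and 32.8 FPKM. Abcb10, which stabilises the mitochondrial iron importer, had 39.6 and 16.8 FPKM, and its corrected log2 ratio of -0.83 was under the cut-off. The last enzyme, ferrochelatase (Fech), had 144 and 76.9 FPKM, and its log2 ratio of -0.90 was -0.06 after the correction. Among 6 further genes of heme breakdown and binding, Hp, which binds free hemoglobin, was higher (12.9 and 46.8 FPKM), and Hebp1 was lower (5.79 and 2.46 FPKM).

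Genes of iron-sulfur cluster assembly lay on the other side from the members. Of 23 genes, 20 had a log2 ratio above 0 and the median was 0.45, and after the correction 18 did and the median was 0.29, yet 0 passed the cut-off upwards and 1 passed it downwards. Of all genes averaging 1 FPKM or more, 51.7% were below 0 as deposited. The chaperone Hspa9 had 199 FPKM in WT and 333 FPKM in STAP-1 KO LSCs, Bola3 had 115 and 192 FPKM, and the scaffold gene Iscu had 42.2 and 62.6 FPKM. The electron donor Fdx1 was the one that was lower, with 237 and 79.6 FPKM. In the list of iron chaperones and sensing, 2 of 11 genes were lower (1 after the correction), and the cytosolic iron chaperones Pcbp1 (303 and 364 FPKM) and Pcbp2 (25.7 and 42.5 FPKM) were within the cut-off.

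**Figure D4:**
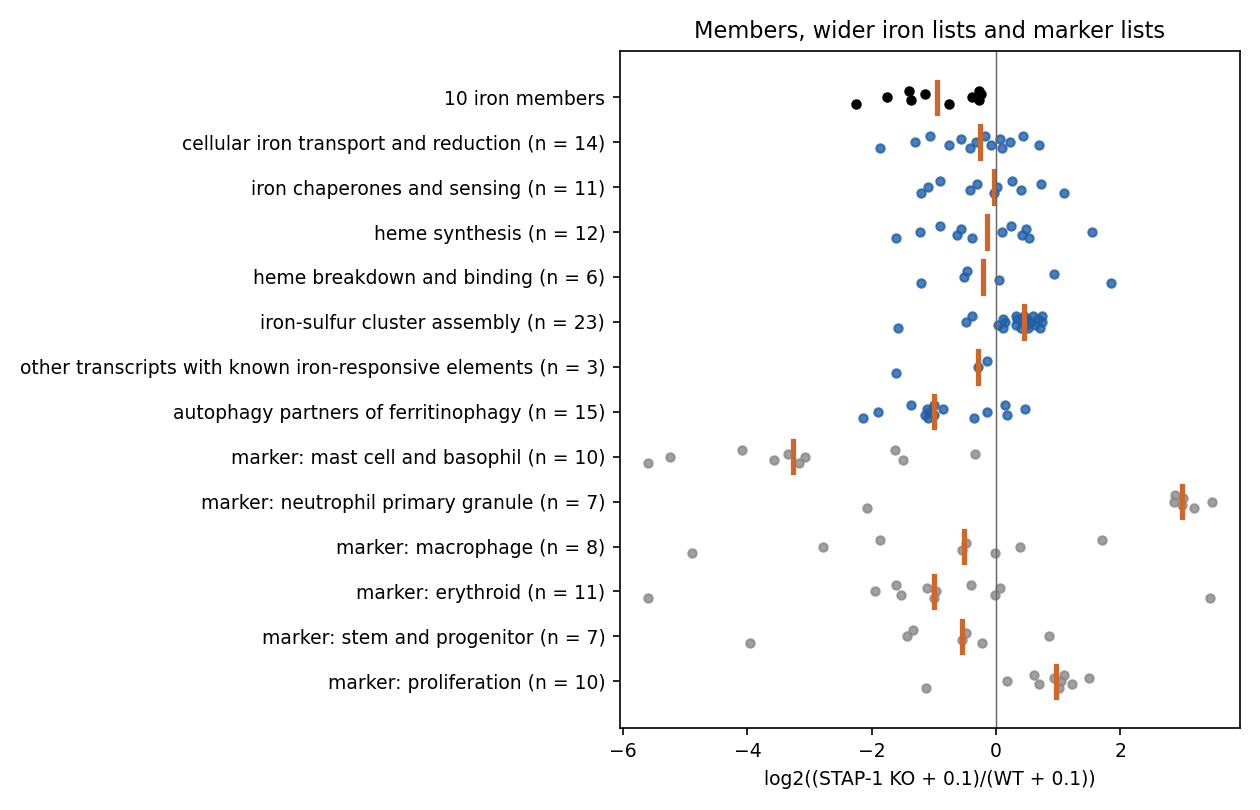
Log2 ratio of STAP-1 KO over WT (x axis) of each gene averaging 1 FPKM or more in the iron members (black), the wider iron lists (blue) and the cell type marker lists (grey), with the median of each list as an orange bar. The members lie wholly below 0 with a median of -0.95, iron-sulfur cluster genes lie mostly above it with a median of 0.45, and the medians of the marker lists reach from -3.26 to 2.99.

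Several cell type marker lists also differed between the libraries. Their counts stand beside 22.2% lower and 11.5% higher among all genes averaging 1 FPKM or more. After the correction 19.6% of all 12507 genes compared were lower and 10.7% were higher. The 10 mast cell and basophil markers summed to 51462 FPKM in WT and 5276 FPKM in STAP-1 KO LSCs, 9 of them were lower by at least 2-fold, and Cpa3 alone had 17984 and 1774 FPKM. Of 7 neutrophil primary granule markers 6 were higher, with Mpo at 248 and 1973 FPKM, while Srgn, which mast cells also express strongly, was lower (6691 and 1588 FPKM). The 14 macrophage markers summed to 157 and 46.3 FPKM, and among the 8 that averaged 1 FPKM or more, 3 were lower and 1 was higher. The lower ones were Spic (18.9 and 0.542 FPKM), Emr1 (30.7 and 4.34 FPKM) and Cd68 (95.7 and 26.3 FPKM), whereas Csf1r had 1.56 and 5.31 FPKM, and C1qa, C1qb, C1qc, Cd163, Mertk, Mrc1 and Timd4 were all below 3 FPKM in both libraries. No macrophage marker was listed at 0 in both.

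The 11 erythroid markers summed to 2968 and 1471 FPKM, with 5 lower and 1 higher, of which the near-identical Hba-a1 and Hba-a2 cannot be read singly. As deposited, the log2 ratio was -1.95 for Slc4a1, -1.53 for Ermap and -0.99 for Rhag, and 8 markers were lower and 1 was higher after the correction, whereas Klf1 (103 and 108 FPKM) and Epor (28.8 and 28.5 FPKM) had similar values. The 10 proliferation genes had a median log2 ratio of 0.97, with 5 higher and 1 lower (0.63, with 3 higher and 0 lower, after the correction), whereas Tfrc, which dividing cells express strongly, was at -0.76. Among the 7 stem and progenitor markers that averaged 1 FPKM or more, 3 were lower, beside 22.2% of all genes at this level. After the correction 2 were lower, as Mecom went from -1.33 to -0.86, beside 19.6% of all genes compared. The whole list summed to 1054 and 346 FPKM, of which Kit had 468 and 30.1 FPKM, and Procr was on the other side (2.98 and 5.45 FPKM). The part of these cell type differences in the values of the iron genes was not tested. In bulk RNA, fewer cells of a type and less RNA per cell cannot be told apart.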

How the data were processed

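RNA-seq of 1 WT and 1 STAP-1 KO library of CML LSCs was analysed. The authors sequenced 75-base single reads, mapped them to mm10 (GRCm38) with TopHat 2.0.13 and Bowtie2 2.2.3 and deposited FPKM values made with Cuffnorm 2.2.1. The annotation and the scaling of the libraries are not given in the sources used here, and the version of SAMtools differs between the methods and the submitters' processing notes. The library kits (SMART-Seq and Nextera XT) do not mark strand.

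Software was scipy 1.17.1, pandas 2.3.3 and numpy 2.4.6 under Python 3.11.15. Calls needed 0.1 FPKM in both libraries and a ratio of 2, and log2 ratios used a pseudocount of 0.1 FPKM. Lists were described over genes averaging 1 FPKM or more. The members and lists were chosen with earlier results of these data known. Named genes were the 10 members, Stap1, the genes with ferritin symbols, up to 5 genes per list that differed most at a pseudocount of 1 FPKM, and the most abundant and defining markers. Other list genes named for their role were chosen after their values were seen. Some list genes that the rule selects are not reported here.

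Of the symbols 20911 matched GENCODE M21 as written, 1934 through an older RefSeq symbol (GRCm38.p6) and 439 did not. Depth came from values below 0.3 FPKM of genes with 1 annotated transcript, of which 47.5% (WT) and 48.6% (STAP-1 KO) lay within 0.01 of a whole read. Counting intervals of single genes are Clopper-Pearson, and those of pairs are a normal approximation. Reads were estimated with the longest coding transcript, so they are approximate. The correction subtracted the median log2 ratio of 20 bins of transcript length and then of 20 bins of GC content. The depth, call, correction and motif steps were tested on simulated data.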

Additional observations from a re-analysis of the deposited data

How the results depend on the processing

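The alternatives were other cut-offs, floors, pseudocounts and scalings, and a correction for length and GC content of the transcripts. The number of the 10 members called lower was 5 and stayed between 4 and 6 except at a 4-fold cut-off, which left 1 (Slc11a1). Of all genes compared, 22.9% were lower in the main setting. At a 1.5-fold cut-off 32.8% were lower, beside 6 members, and at the 4-fold cut-off 8.56%. After the correction 19.6% were lower, beside 4 members. No member was higher under any alternative. Over all 12507 genes compared, a 1.5-fold cut-off gave 3201 higher genes in place of 1538 and 4101 lower genes in place of 2860. A 4-fold cut-off gave 300 higher and 1071 lower genes. Scaling to equal total FPKM without features under 200 bases shifted the log2 ratios by 0.17 and moved the share of lower genes among those called from 65.0% to 53.6%. It also moved the median of the iron-sulfur list to 0.62 and that of the other transcripts with IREs to -0.12. Equal totals over all features, an alternative chosen after seeing the data, shifted them by 0.10 and gave a share of 57.9%. The length and GC correction moved the median of the iron-sulfur list to 0.29. Without a floor on the mean, the median of the other transcripts with IREs was -0.85 in place of -0.29. Over all settings the log2 ratio stayed between -0.87 and -0.22 for Fth1, -1.59 and -1.20 for Ftl1, -0.76 and -0.59 for Tfrc, -0.50 and -0.07 for Slc40a1, -2.43 and -1.37 for Slc11a1, -2.04 and -1.60 for Hmox1, -1.16 and -0.92 for Ireb2 and -1.40 and -1.23 for Aco1. Those of Ncoa4 (-0.27 to 0.09) and Slc11a2 (-0.27 to 0.00) reached 0. The medians of the lists of chaperones and sensing, heme synthesis and heme breakdown changed sign under some settings. No paired analysis was possible because each genotype has 1 library. Depth limits Slc11a1 most. Levels of protein and of iron were not measured.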
